A study of Mus musculus with 12 samples.

Results

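The genes described here are 31 genes that mark the blood vessels of the brain, the mural cells around them and the meninges, out of 22667 gene IDs in the deposited tables. They were taken from a written list by gene symbol, without a threshold on any measured value. That list was chosen with earlier results of these data known. The list comprised 12 endothelial genes, 6 genes of pericytes and vascular smooth muscle (mural genes) and 13 genes of meningeal fibroblasts and extracellular matrix. All 31 were found, and all 31 passed the filter on low counts that left 16111 genes to test. RNA was sequenced from cortex or hippocampus of E18.5 mouse embryos. Control embryos were labelled wild type. Knockout embryos lacked functional Srrm4, also called nSR100, a splicing regulator of neurons. Their allele was a conditional EUCOMM allele, brought in through stem cells aggregated with outbred ICR morulae and kept on C57Bl/6N. Exons 7 and 8 were removed by crossing to the CMV-cre line, in which a broadly active viral promoter drives Cre. Nothing in the labels ties the deletion to neurons, and they do not say that the control animals carried Cre. Each of the 4 groups had 2 libraries, and nothing in the labels says whether these came from separate animals. Y-linked RNA, given below, differed between the 2 libraries of every group, so they were not repeats of 1 RNA source. Whether a library held 1 animal or a pool is not said, so the p-values measure the spread between libraries.

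Endothelial cells line the vessels and, in the brain, form the blood-brain barrier with tight junctions and a set of transporters. Pericytes share their basement membrane and support that barrier, and smooth muscle covers arterioles. The meninges wrap the brain and follow larger vessels into it. Their fibroblasts make fibrillar collagens and small proteoglycans, and one such fold of pia runs along the hippocampal fissure next to the dentate gyrus.

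Library totals ran from 58210499 to 140052443 counts. Srrm4, the targeted gene, lay at 25.22 and 24.22 RPKM (reads scaled by gene length and library total) in cortex control and at 8.12 and 6.97 RPKM in cortex knockout. In hippocampus it lay at 26.03 and 27.86 RPKM in control and at 5.68 and 6.16 RPKM in knockout, so each knockout library lay below each control library; the values count reads over the whole gene, not the removed exons alone. The tissue labels were checked with Prox1, a dentate gyrus gene, at 14.7 to 20.6 CPM (counts scaled by library size with TMM factors, not by gene length) in cortex and 101 to 138 CPM in hippocampus. In hippocampus knockout replicate 1 mitochondrial genes took 4.401% of the counts, against 3.142% to 3.444% in the other 7 libraries. That library therefore stands apart, and counts are also given without it. The defining markers of the 3 cell groups were detected in every library: none of the 31 genes was at 0 anywhere, and the smallest count was 8 reads, for Slc6a13 in cortex control replicate 1.

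**Figure D1:**
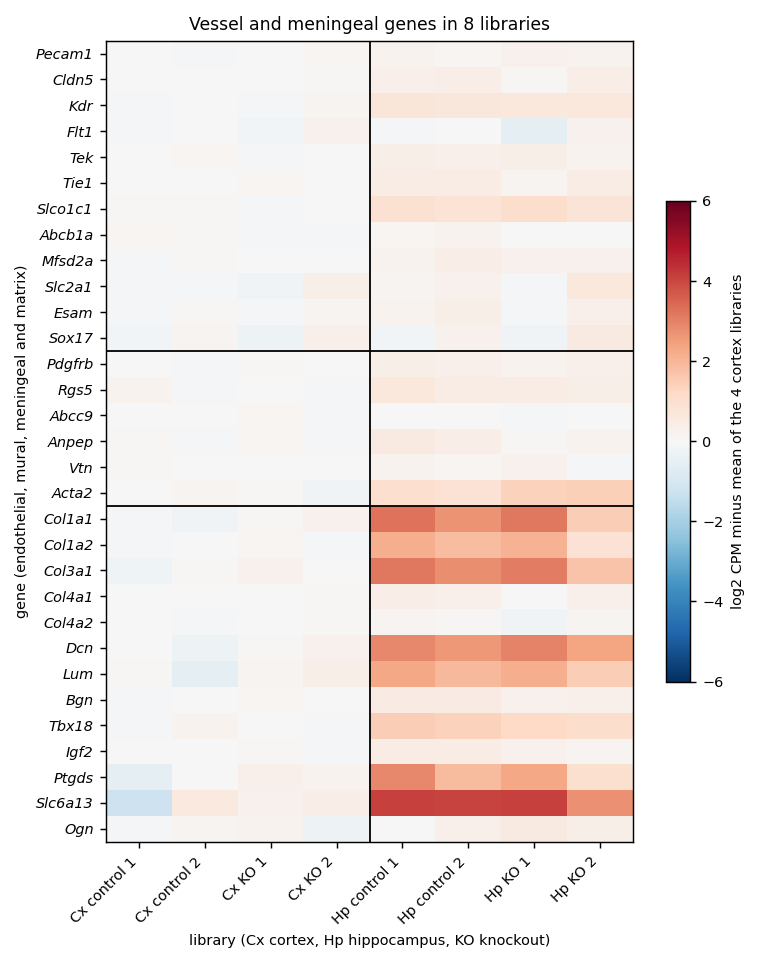
Heat map of the 31 genes (rows, grouped as endothelial, mural, and meningeal and matrix genes) in the 8 libraries (columns); colour is the log2 CPM of a library minus the mean log2 CPM of the 4 cortex libraries. The strongest reds lie in the meningeal and matrix rows of the hippocampus columns, where Slc6a13, Col1a1, Col3a1 and Dcn stand out, and they are paler in hippocampus knockout replicate 2.

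The first comparison asked how these genes differed between hippocampus and cortex. Over both genotypes, 22 of the 31 genes were higher in hippocampus and 0 were lower (edgeR quasi-likelihood test, Benjamini-Hochberg adjusted p under 0.05, 4 libraries against 4). Among all genes tested, 29.0% were higher, 25.0% were lower and 54.1% were called in either direction, so a call as such was common. By group, 11 of 13 meningeal and matrix genes rose, 7 of 12 endothelial genes and 4 of 6 mural genes. The median log2 fold change was 1.83 for the meningeal and matrix genes, 0.30 for the mural genes, 0.26 for the endothelial genes and 0.02 for all genes. On TMM-scaled counts, 20 of the 31 genes had all 4 hippocampus libraries above all 4 cortex libraries, which held for 26.9% of all genes, and none had them all below, which held for 24.0%. Without hippocampus knockout replicate 1, 25 genes were higher, and the share of all genes higher in that fit is not given here. With each pair of same genotype and number as a block, 25 were higher and 0 lower, where 63.3% of all genes were called in either direction; Slc2a1, Esam and Ogn were gained and none was lost. In bulk tissue, more cells of a type and more RNA per cell cannot be told apart, which holds for every level below.

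Among the endothelial genes, the largest difference was that of Slco1c1, a thyroid hormone transporter of the blood-brain barrier that astrocytes also express. It measured 19.76, 20.69, 17.58 and 18.89 RPKM in the cortex libraries (control replicates 1 and 2, then knockout replicates 1 and 2, the order kept from here on). The hippocampus libraries gave 37.76, 36.28, 42.79 and 35.02 RPKM. Every hippocampus library was thus well above every cortex library. The log2 fold change was 0.89 ± 0.07 (SE; edgeR adjusted p = 6.4e-06), a 1.86-fold difference.

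Kdr, the main VEGF receptor of endothelial cells, followed with 7.31, 7.86, 7.14 and 8.61 RPKM in cortex and 12.96, 13.11, 12.85 and 12.84 RPKM in hippocampus. The 4 hippocampus values lay within a narrow band and did not overlap those of cortex. Its log2 fold change was 0.66 ± 0.06 (SE; edgeR adjusted p = 1.5e-05).

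Smaller rises were shared by genes of the vessel wall itself. Tek, the angiopoietin receptor, rose by log2 0.31 ± 0.07 and its partner Tie1 by 0.37 ± 0.08 (SE). Cldn5, the tight junction protein of the barrier, ranged from 27.66 to 30.32 RPKM in cortex and from 32.74 to 41.07 RPKM in hippocampus, with a log2 fold change of 0.30 ± 0.08 (SE). Mfsd2a, a lipid transporter that keeps endothelial vesicle transport low, rose by log2 0.28 ± 0.06 (SE), and the adhesion molecule Pecam1 by 0.21 ± 0.05 (SE). In all of these the hippocampus values lay above all cortex values.

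The other 5 endothelial genes did not pass the test. Flt1, the VEGF receptor that acts as a decoy, gave a log2 fold change of -0.07 ± 0.16 (SE), and the drug efflux pump Abcb1a gave 0.08 ± 0.07; reads of Abcb1a may be split with its near copy Abcb1b. The adhesion molecule Esam gave 0.19 ± 0.11 and the transcription factor Sox17 gave 0.11 ± 0.20. Slc2a1, the glucose transporter of the barrier, measured 19.18, 20.36, 18.01 and 27.33 RPKM in cortex and 24.57, 26.99, 20.86 and 34.33 RPKM in hippocampus. Cortex knockout replicate 2 and hippocampus knockout replicate 2 were the highest library of their tissue, and the tissues overlapped (0.25 ± 0.16, SE). Without hippocampus knockout replicate 1, Slc2a1 and Esam passed (log2 0.39 and 0.29, edgeR adjusted p = 0.03 and 0.026). With the block both passed as well, Slc2a1 at 0.24 ± 0.05 and Esam at 0.19 ± 0.06 (SE; edgeR adjusted p = 0.0029 and 0.025).

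**Figure D2:**
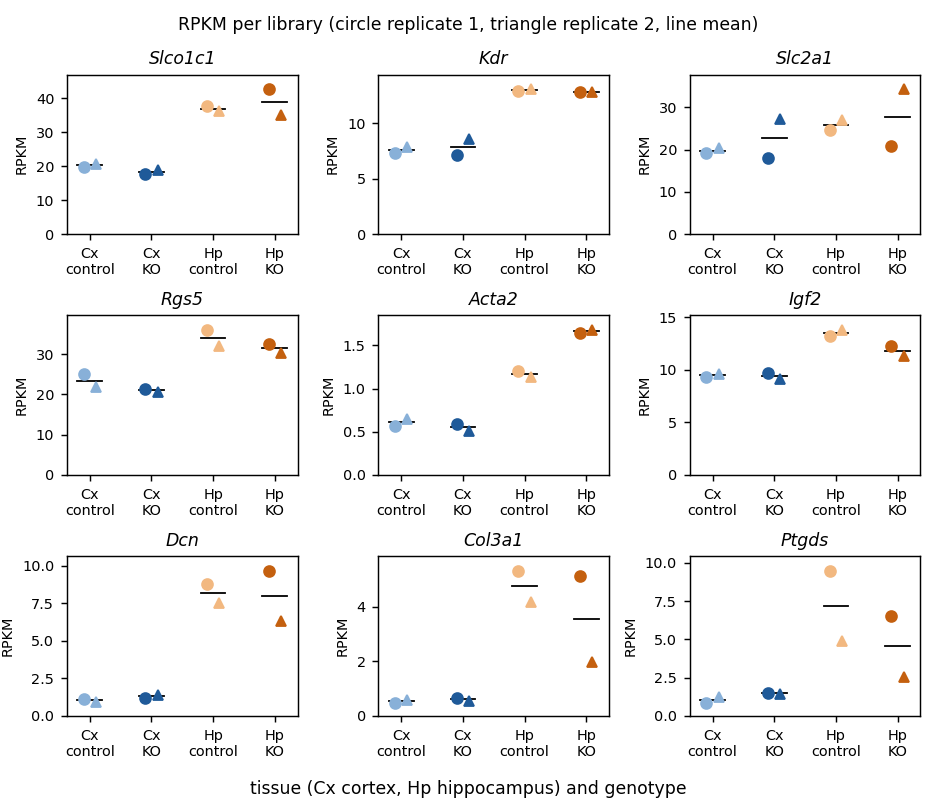
RPKM (y axis, from 0) of 9 genes in each library, by tissue and genotype (x axis); circles are replicate 1, triangles replicate 2, and the black line is the mean of the 2. Slco1c1, Kdr, Rgs5, Acta2, Igf2, Dcn, Col3a1 and Ptgds lie higher in every hippocampus library than in any cortex library, while Slc2a1 overlaps between the tissues.

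Of the mural genes, Rgs5, a G protein signalling regulator enriched in pericytes, measured 25.07, 21.72, 21.38 and 20.66 RPKM in cortex and 35.99, 31.95, 32.57 and 30.27 RPKM in hippocampus. The tissues did not overlap, and the log2 fold change was 0.47 ± 0.07 (SE; edgeR adjusted p = 0.00038). Pdgfrb, the PDGF receptor that pericytes need to cover vessels, gave 5.17, 5.02, 5.29 and 5.21 RPKM in cortex and 6.71, 6.92, 6.54 and 6.76 RPKM in hippocampus. This small difference was even across libraries (log2 0.29 ± 0.05, SE; edgeR adjusted p = 0.00098).

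Acta2, the smooth muscle actin, was low in both tissues, at 0.57, 0.65, 0.59 and 0.51 RPKM in cortex and 1.21, 1.13, 1.65 and 1.68 RPKM in hippocampus. All hippocampus values were above all cortex values (log2 1.18 ± 0.14, SE; edgeR adjusted p = 0.00011). Actin genes are close in sequence, so part of these reads may belong to another actin. Anpep, an aminopeptidase of pericytes, rose by log2 0.31 ± 0.11 (SE; edgeR adjusted p = 0.039). The tissues overlapped on the TMM-scaled counts but not in RPKM. This call was lost when any of 6 of the 8 libraries was left out, with adjusted p from 0.063 to 0.12. Abcc9, a potassium channel subunit of pericytes, and Vtn, an adhesive protein that pericytes secrete, did not pass, at -0.04 ± 0.06 and 0.13 ± 0.09 (SE).

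The meningeal and matrix genes held the largest differences. Slc6a13, a transporter for GABA and taurine found in meninges, was low in cortex, with 8, 15, 24 and 12 counts. Hippocampus gave 314, 177, 334 and 61 counts, all above cortex, with hippocampus knockout replicate 2 the lowest of them. In RPKM these were 0.03, 0.10, 0.08 and 0.09 in cortex and 1.22, 1.22, 1.29 and 0.50 in hippocampus, and the log2 fold change was 3.81 ± 0.40 (SE; edgeR adjusted p = 4e-05).

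The 3 fibrillar collagen genes rose with it. Col3a1 measured 0.46, 0.60, 0.66 and 0.56 RPKM in cortex and 5.32, 4.19, 5.12 and 1.96 RPKM in hippocampus (log2 2.77 ± 0.29, SE; edgeR adjusted p = 4.5e-05). Col1a1 gave 0.21, 0.20, 0.24 and 0.28 RPKM in cortex and 2.30, 1.61, 2.21 and 0.68 RPKM in hippocampus (log2 2.79 ± 0.35, SE; edgeR adjusted p = 0.00013). Both stayed apart between tissues in every library, though hippocampus knockout replicate 2 was the lowest of the 4 hippocampus libraries. Col1a2, whose product joins that of Col1a1 in type I collagen, lay at 0.73, 0.83, 0.85 and 0.77 RPKM in cortex and at 3.73, 3.04, 3.71 and 1.57 RPKM in hippocampus (log2 1.83 ± 0.24, SE; edgeR adjusted p = 0.00018).

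Small leucine-rich proteoglycans that bind collagen fibrils, Dcn and Lum, are neighbouring genes on chromosome 10. Dcn had the smallest adjusted p of the 31 genes, with 1.11, 0.94, 1.21 and 1.40 RPKM in cortex and 8.80, 7.55, 9.66 and 6.30 RPKM in hippocampus (log2 2.71 ± 0.16, SE; edgeR adjusted p = 1.2e-06). Lum gave 0.19, 0.12, 0.20 and 0.24 RPKM in cortex and 0.92, 0.75, 0.87 and 0.54 RPKM in hippocampus (log2 1.97 ± 0.23, SE; edgeR adjusted p = 7.1e-05). Neither overlapped between tissues. The related Bgn, already at 4.98 to 5.67 RPKM in cortex, rose less, by log2 0.39 ± 0.08 (SE), and Ogn did not pass at 0.30 ± 0.15 (SE), but did with the block at 0.30 ± 0.10 (SE; edgeR adjusted p = 0.035).

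Ptgds, which makes prostaglandin D2 and is expressed by meningeal cells and the choroid plexus, measured 0.84, 1.26, 1.48 and 1.45 RPKM in cortex and 9.47, 4.92, 6.55 and 2.55 RPKM in hippocampus. The hippocampus libraries spread widely, with hippocampus control replicate 1 the highest and hippocampus knockout replicate 2 the lowest, yet all lay above cortex (log2 2.15 ± 0.38, SE; edgeR adjusted p = 0.0011). Tbx18, a transcription factor of mural and meningeal cells, gave 0.18, 0.23, 0.19 and 0.18 RPKM in cortex and 0.56, 0.55, 0.49 and 0.44 RPKM in hippocampus (log2 1.29 ± 0.12, SE; edgeR adjusted p = 1.7e-05). Igf2, an imprinted growth factor made by meninges, vessels and choroid plexus, gave 9.35, 9.61, 9.69 and 9.13 RPKM in cortex and 13.16, 13.77, 12.24 and 11.29 RPKM in hippocampus (log2 0.32 ± 0.06, SE; edgeR adjusted p = 0.0013). An antisense transcript overlaps Igf2, and no strand setting is given in the sources used here.

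For type IV collagen, the network of the vessel basement membrane, the levels were higher and the estimates smaller than for the fibrillar collagens. Col4a1 measured 24.78, 25.08, 24.08 and 26.79 RPKM in cortex and 33.95, 33.24, 27.45 and 33.52 RPKM in hippocampus, with hippocampus knockout replicate 1 close to the cortex values. On the TMM-scaled counts the tissues overlapped, and the log2 fold change was 0.26 ± 0.08 (SE; edgeR adjusted p = 0.018). That call was lost without any of 4 libraries (adjusted p 0.05 to 0.061). Its partner Col4a2 lay at 18.78 to 20.81 RPKM in cortex and 18.47 to 23.56 RPKM in hippocampus and did not pass (0.05 ± 0.08, SE).

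The promoters of 4 of these collagen genes are shown. Col1a2 and Col3a1 stand for the fibrillar collagens, which rose by larger factors than type IV collagen, and Col1a1 is not shown. Col4a1 and Col4a2 are shown because they start back to back. The windows are RefSeq sequence of build GRCm38.p6, from 250 bases before to 50 after the gene start, written 5′ to 3′ on the gene's strand, while the deposited counts were made on mm9. Capitals mark 3 motifs on either strand: the box CCAAT (read as ATTGG on the other strand), the box TATAAA, and the box GGGCGG (read as CCGCCC on the other strand). No marked matches overlap. Col4a1 (chr8:11312777-11313076, minus strand) and Col4a2 (chr8:11312555-11312854, plus strand) are neighbours on opposite strands, and their windows share 78 bases. Col1a2 lies at chr6:4505368-4505667 and Col3a1 at chr1:45311288-45311587, both on the plus strand.
Col4a1: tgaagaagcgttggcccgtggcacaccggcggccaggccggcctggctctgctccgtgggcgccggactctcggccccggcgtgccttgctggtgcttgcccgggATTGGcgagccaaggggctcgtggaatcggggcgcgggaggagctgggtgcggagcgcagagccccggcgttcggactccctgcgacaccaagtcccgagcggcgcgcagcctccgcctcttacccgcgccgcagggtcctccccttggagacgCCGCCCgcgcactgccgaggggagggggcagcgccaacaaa
Col4a2: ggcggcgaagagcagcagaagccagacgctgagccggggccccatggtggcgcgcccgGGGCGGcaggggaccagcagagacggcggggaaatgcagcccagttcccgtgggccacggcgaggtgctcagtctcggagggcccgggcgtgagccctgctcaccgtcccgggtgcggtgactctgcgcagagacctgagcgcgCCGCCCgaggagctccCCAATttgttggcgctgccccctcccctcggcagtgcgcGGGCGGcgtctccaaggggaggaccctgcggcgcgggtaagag
Col1a2: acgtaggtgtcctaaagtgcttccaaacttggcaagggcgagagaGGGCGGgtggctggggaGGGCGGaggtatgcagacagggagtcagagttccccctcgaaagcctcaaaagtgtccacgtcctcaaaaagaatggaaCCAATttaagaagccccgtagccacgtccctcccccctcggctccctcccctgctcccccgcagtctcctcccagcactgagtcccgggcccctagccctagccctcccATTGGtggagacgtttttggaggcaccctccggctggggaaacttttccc
Col3a1: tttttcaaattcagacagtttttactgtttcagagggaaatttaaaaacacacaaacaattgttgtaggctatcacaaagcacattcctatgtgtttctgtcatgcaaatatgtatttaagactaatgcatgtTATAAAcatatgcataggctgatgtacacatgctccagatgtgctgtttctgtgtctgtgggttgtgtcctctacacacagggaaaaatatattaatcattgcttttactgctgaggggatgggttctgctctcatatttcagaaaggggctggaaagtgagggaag
The Col4a1 and Col4a2 windows held 74.0% and 73.7% G and C, that of Col1a2 61.0% and that of Col3a1 37.7%. Of the 31 genes, 24 had a promoter in the RefSeq table. CCAAT was found in 11 of those 24 and in 37.4% of all 32851 promoters, TATAAA in 6 of 24 and in 13.6%, and GGGCGG in 12 of 24 and in 35.7%. A match is a description of these letters only.

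The tissue difference was then taken within each genotype, from libraries that the 2 comparisons do not share. In controls, 20 of the 31 genes were higher in hippocampus and 0 lower, where 33.9% of all genes were called in either direction and 14.9% were called lower. In 26 of the 31 both hippocampus control libraries lay above both cortex ones, as in 36.6% of all genes. Fewer passed without cortex control replicate 2, a fit that leaves 1 library in that group. In knockouts, 16 genes were higher and 0 lower, where 40.0% of all genes were called in either direction and 18.8% were called lower. In 22 of the 31 the knockout libraries were separated that way, as in 35.9% of all genes. The calls shared 15 genes, which is 15 of the 20 and 15 of the 16. Cldn5, Tie1, Anpep, Bgn and Col4a1 passed in controls alone, Tek passed in knockouts alone, and Pecam1 passed in neither. The interaction of genotype and tissue passed for none of these 7 genes (edgeR adjusted p = 1 for each). With the replicate number as a block, Tek and Esam passed in controls too (log2 0.28 ± 0.10 and 0.29 ± 0.09, SE; edgeR adjusted p = 0.049 and 0.035).

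**Figure D3:**
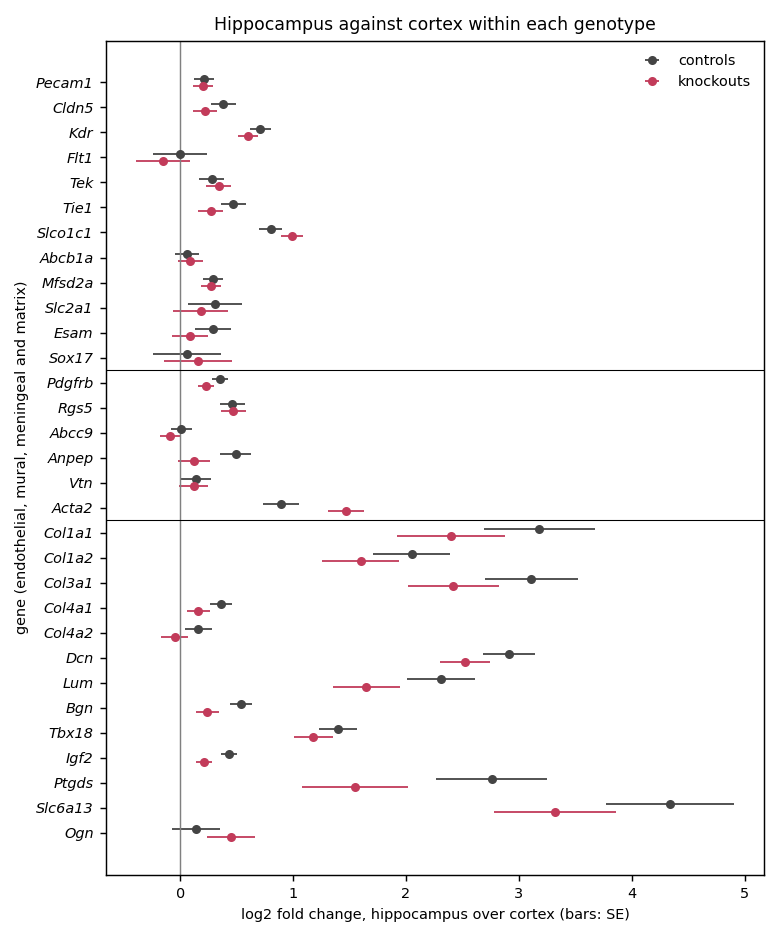
Log2 fold change of hippocampus over cortex (x axis) for the 31 genes (y axis) in controls (grey, 2 libraries against 2) and in knockouts (red, 2 against 2); bars are standard errors. The values of Slc6a13, Col1a1, Col3a1, Dcn and Ptgds lie far to the right in both genotypes, and most endothelial and mural values lie between 0 and 1.

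The second comparison asked whether loss of Srrm4 changed these genes. None of the 31 passed in cortex, in hippocampus or over both tissues. The fit over both tissues took the 4 libraries of each genotype as separate, though same-numbered libraries of the 2 tissues were correlated. Its standard errors and p-values may be too small, which holds for every genotype value over both tissues below. By edgeR's quasi-likelihood test 0 of 31 were called in cortex, 0 in hippocampus and 0 over both, where 0.0186%, 0.0248% and 0.0621% of all genes were. With the replicate block the 31 genes still gave 0 calls, while the share of all genes over both tissues was 0.137%. DESeq2 also called 0 in each. At an unadjusted p under 0.05 edgeR counted 0 genes in cortex, 3 in hippocampus and 1 over both tissues, where 1.14%, 3.81% and 4.43% of all genes passed that mark. DESeq2 counted 0, 2 and 1, where 0.602%, 2.91% and 3.91% of all genes did. The medians over the 31 genes were 0.06, -0.12 and -0.05 on the log2 scale, against 0.00 for all genes in each.

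In cortex the smallest p belonged to Abcb1a, at 1.69 and 1.64 RPKM in control and 1.44 and 1.48 RPKM in knockout. The groups did not overlap, but the log2 fold change of -0.19 ± 0.11 (SE) did not pass (edgeR adjusted p = 1). Slco1c1 followed at -0.15 ± 0.10 (SE) and Dcn at 0.33 ± 0.23 (SE). Over both tissues Abcb1a stood at -0.17 ± 0.07, Rgs5 at -0.15 ± 0.07 and Igf2 at -0.11 ± 0.06 (SE), with edgeR adjusted p = 1 for each. Groups without overlap were 7 higher and 3 lower in cortex, where 11.0% and 11.4% of all genes were, and 2 higher and 7 lower in hippocampus, where 13.3% and 15.9% were. Over both tissues they were 0 higher and 1 lower, where 0.472% and 0.509% of all genes were.

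In hippocampus Igf2 lay at 13.16 and 13.77 RPKM in control and at 12.24 and 11.29 RPKM in knockout, without overlap. Its log2 fold change was -0.22 ± 0.07 (SE; edgeR adjusted p = 0.99). Acta2 gave 0.47 ± 0.15 and Anpep -0.36 ± 0.14 (SE), also with adjusted p of 0.99. Of the 13 meningeal and matrix genes, 12 had a negative estimate in hippocampus, with a median of -0.25, and none passed.

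**Figure D4:**
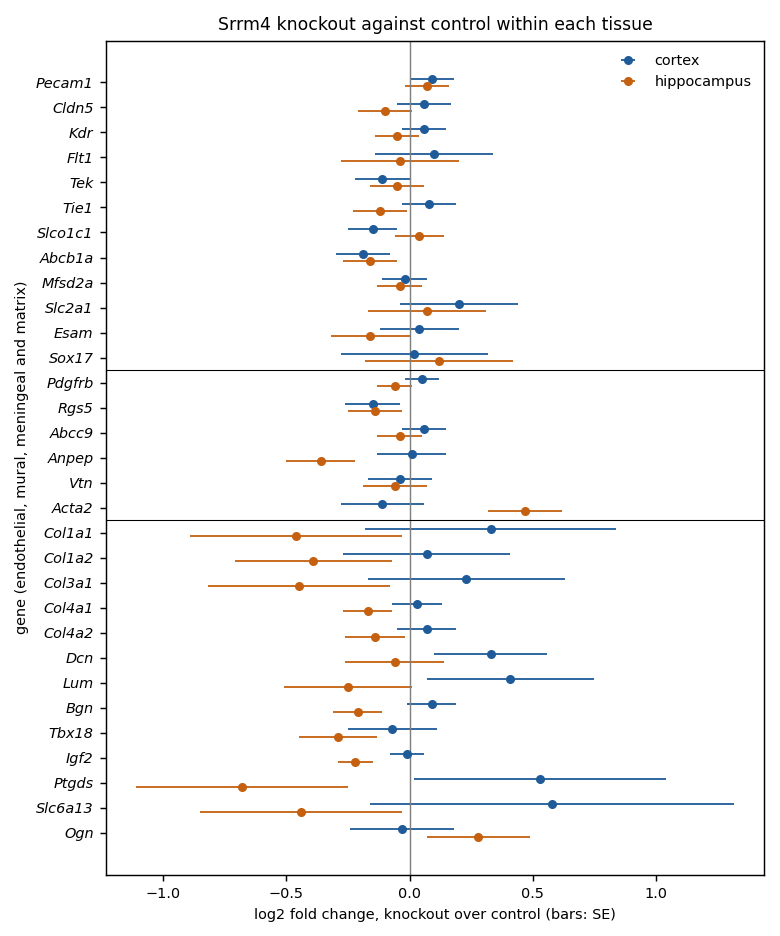
Log2 fold change of knockout over control (x axis) for the 31 genes (y axis) in cortex (blue, 2 libraries against 2) and in hippocampus (orange, 2 against 2); bars are standard errors. In hippocampus 12 of the 13 meningeal and matrix values lie below 0, with bars that are wide for Col1a1, Col3a1, Ptgds and Slc6a13, and no value passed the test.

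A single library lay low among those estimates. Hippocampus knockout replicate 2 was the lowest hippocampus library in 9 of the 13 meningeal and matrix genes, and hippocampus control replicate 1 was the highest in 9. Between the 2 hippocampus knockout libraries, the ratio of replicate 2 to replicate 1 was 0.314 for Col1a1, 0.388 for Col3a1, 0.39 for Slc6a13 and 0.395 for Ptgds on scaled counts. In the 2 cortex knockout libraries the same ratios were 1.12, 0.826, 1.09 and 0.954. The spread within the hippocampus knockout group was thus wider for these genes than the difference between the genotypes. The part of this library in the negative estimates was not tested.

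The summed level of 4 Y-linked genes was 36.9 and 146 CPM in cortex control, 26.6 and 0.325 CPM in cortex knockout, 39.6 and 142 CPM in hippocampus control, and 47.4 and 0.398 CPM in hippocampus knockout. Replicate 2 therefore differed between control and knockout in Y-linked RNA in both tissues. The 2 replicates also differed within each group, replicate 2 being higher in the controls and lower in the knockouts. The part of sex in the genotype estimates, in the replicate differences and in the block was not tested. Red blood cell genes, which report on blood held in the vessels, summed to 44.7 to 59.4 CPM in controls and 59.4 to 96.3 CPM in knockouts. All 7 tested had a positive estimate over both tissues (median log2 0.58); edgeR called 0, with 5 at an unadjusted p under 0.05 (4.43% of all genes), and DESeq2 called 1, Hbb-bs, of its 37 calls over all genes. Their part in the estimates of the 31 genes was not tested either.

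The interaction between genotype and tissue called 0 of the 31 genes and 0 of all genes, or 0% (edgeR and DESeq2, 1 of the 31 at an unadjusted p under 0.05 in each, against 0.981% and 0.528% of all genes). The strongest member, Acta2, had an interaction of 0.58 ± 0.23 (SE; edgeR adjusted p = 1).

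Other genes of the same pathways, listed by role, followed the tissue difference in part. Their counts stand beside 29.0% of all genes called higher, 25.0% called lower and 54.1% called in either direction. Of 31 further endothelial genes, 19 rose in hippocampus and 0 fell, with a median log2 fold change of 0.38. Lef1, a Wnt effector that barrier endothelium shares with hippocampal progenitors, rose by 2.84 ± 0.09, and Palmd by 1.19 ± 0.05 (SE). Of 24 genes of vessel signalling, 12 rose and 3 fell. The co-receptor Nrp1, which neurons also express, ranged from 28.13 to 31.20 RPKM in cortex and from 137.43 to 164.21 RPKM in hippocampus (log2 2.30 ± 0.08, SE), and Tspan12, a Norrin co-receptor of endothelium, rose by log2 0.79 ± 0.06 (SE). Wnt7b and Wnt7a, the neural Wnt ligands that induce the barrier, fell by 0.87 and 0.41 on the log2 scale.

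Further mural genes moved little: 3 of 14 rose, 1 fell, and the median was 0.03. Myl9 rose by log2 1.16 ± 0.07 and Mcam by 0.49 ± 0.13 (SE), while the smooth muscle myosin Myh11, at 0.07 to 0.11 RPKM, fell by 0.40. Mcam is also among the further endothelial genes, so its rise is counted in both lists. Of 26 further meningeal genes 24 were tested, and 17 rose and 2 fell, with a median of 0.70. Spp1 rose by log2 2.33 ± 0.13 and Lox, a collagen cross-linking enzyme, by 2.79 ± 0.23 (SE). The 2 that fell were Pdgfra, a fibroblast gene that oligodendrocyte precursors also express (log2 -0.90 ± 0.12, SE), and Crabp2, a retinoic acid binding protein (-0.50 ± 0.14, SE).

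Among 24 further matrix genes, 18 rose and 4 fell, with a median of 0.88. Col12a1 ranged from 1.55 to 1.79 RPKM in cortex and from 10.92 to 15.08 RPKM in hippocampus (log2 2.83 ± 0.09, SE), and Col5a2 rose by log2 1.65 ± 0.06 (SE). The fibrillin gene Fbn1 and the collagen gene Col8a1 fell by 0.73 and 2.20. Of 11 genes of the insulin-like growth factor pathway other than Igf2, 4 rose and 2 fell, close to the 54.1% of all genes called in either direction. Igf2bp1 rose by log2 0.69 ± 0.09 and Igf1 by 0.92 ± 0.18 (SE), and Igf2bp2 and Igfbp3 fell by 0.93 and 0.40. In the genotype comparisons edgeR called 0 genes of these 6 lists, with 0 to 4 per list at an unadjusted p under 0.05. Of all genes 1.14% passed that mark in cortex, 3.81% in hippocampus and 4.43% over both tissues. The 4 were among the 24 further meningeal genes tested in hippocampus, of which 20 had a negative estimate. Hippocampus knockout replicates 1 and 2 lay apart for some of the 24, such as Aldh1a2 at 1.96 and 0.349 CPM. For others replicate 2 was not the lower, such as Foxc1 at 2.95 and 3.9 CPM. The part of hippocampus knockout replicate 2 in these estimates was not tested. DESeq2 called 0 as well except for Col5a2 over both tissues, which edgeR left at an adjusted p of 0.29 (log2 0.32 ± 0.06, SE).

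Markers of other cell types moved with the tissue as well, where 29.0% of all genes were called higher and 25.0% lower. The 14 microglia and macrophage genes summed to 50.3 to 64.7 CPM in cortex and 87.2 to 114 CPM in hippocampus, and 13 of them rose, among them C1qa by log2 0.84 ± 0.07 (SE). The 12 choroid plexus genes summed to 24.3 to 28.8 CPM in cortex and to 57.9, 231, 77.1 and 70.4 CPM in hippocampus, and 7 rose and 1 fell. Most of the 231 CPM in hippocampus control replicate 2 was Ttr, at 171 CPM. The 8 neuron genes summed to 5680 to 6170 CPM in cortex and 4200 to 4830 CPM in hippocampus, and all 8 fell. Of 8 radial glia and astrocyte genes 5 rose and 2 fell. For the red blood cell genes the sum was 49.4 to 80.5 CPM in cortex and 44.7 to 96.3 CPM in hippocampus, and 0 of 7 tested were called between tissues by edgeR or DESeq2, also at an unadjusted p under 0.05, but Hba-a1 passed with the block by genotype and number (log2 0.37 ± 0.14, SE; edgeR adjusted p = 0.042). No gene of these lists was at 0 in any library. The part of these cells in the differences of the 31 genes was not tested.

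**Figure D5:**
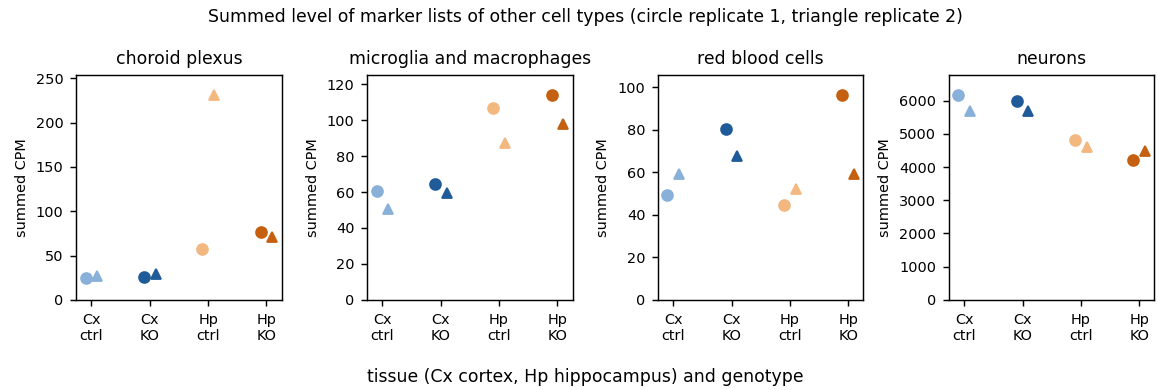
Summed CPM (y axis, from 0) of marker lists of choroid plexus, microglia and macrophages, red blood cells and neurons in each library, by tissue and genotype (x axis); circles are replicate 1 and triangles replicate 2. The choroid plexus sum reaches 231 CPM in hippocampus control replicate 2, the microglia and macrophage sums are higher in all 4 hippocampus libraries, and the neuron sums are lower there.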

How the data were processed

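Reads were aligned by the authors with Bowtie to mm9, per the submitters' processing notes; counting rule, annotation and strand setting: not given in the sources used here. The deposited tables hold a read count and an RPKM value per Ensembl gene ID, both made by the authors, and 1114 RPKM cells per table hold the text "ne", read as missing; blank counts were read as 0. The 12 samples share 8 tables, since replicate 1 of each group pools runs 1 and 2, and each table was used as 1 library.

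IDs were matched to symbols (20759 of 22667). Counts were tested with edgeR 4.0.16 (R 4.3.3, TMM scaling, filterByExpr with a minimum count of 10 and total of 15, 16111 genes, glmQLFTest, two-sided, Benjamini-Hochberg threshold 0.05). Within-tissue and within-genotype comparisons used a model of 4 group means, the others an additive one. CPM is TMM-scaled, and RPKM is as deposited. The script was tested on simulated data. DESeq2 1.42.0 and limma 3.58.1 were alternatives. Deviations of same-numbered libraries from their group means correlated over 16111 genes at 0.368 (controls) and 0.38 (knockouts) between tissues, and at 0.267 (cortex) and 0.107 (hippocampus) between genotypes. Between groups that share neither tissue nor genotype, these deviations correlated at 0.282 (cortex knockout with hippocampus control) and 0.0961 (cortex control with hippocampus knockout). The main fits did not use the replicate number. Fits with the number, or with genotype and number, as a block are given where they change a call. The labels do not say what a number shares. No pair of replicates agreed within sampling noise (chi-square over its degrees of freedom 30.9 to 63.3). Library totals were 58210499 to 140052443 counts.

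The named genes are up to 14 members with the smallest p over the comparisons, the 3 smallest p in each genotype comparison, and for other lists up to 2 called genes per direction. The members and lists were chosen with earlier results of these data known. One check of the tissue labels is not reported here.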

Additional observations from a re-analysis of the deposited data

How the results depend on the processing

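For the 31 genes in hippocampus against cortex, 494 values under alternatives were computed: 465 kept direction and side of the threshold, 12 lost a call, 8 gained one and 9 changed sign. Sign changes were confined to genes that did not pass. Flt1 (-0.07) gave 0.00 with limma on log2(RPKM + 1) and -0.24 to 0.08 with 1 library left out; Abcc9 (-0.04) gave 0.04 and 0.05 with limma at pseudocounts of 1 and 0.1, and -0.08 to 0.02; Sox17 (0.11) gave -0.06 to 0.25 and Col4a2 (0.05) 0.00 to 0.14. The count of 22 was 21 with relative log expression factors or DESeq2, 22 with limma or no filter, and 20 to 25 with 1 library left out. DESeq2 called 8835 of all 16111 genes, against 8712 with edgeR. With genes at 1 RPKM or more in 2 libraries the count was 20. That filter left Lum and Tbx18 untested, at no more than 0.92 and 0.56 RPKM in any library. With 1 library left out, the count of 20 in controls ranged from 13 to 21 and the 16 in knockouts from 11 to 15; the 16 became 12 when only the libraries compared were fitted. Except for DESeq2, the share of all genes called is not given here for these fits. These counts are thus not read as a result about the 31 genes. Calls over all genes also fell in some of these fits, as given below. For genotype, 144 values under alternatives were computed. They covered only the 3 genes with the smallest p in each genotype comparison, not all 31 genes. These values brought no call and no change of sign. The median over all genes moved from 0.02 to 0.11 with limma on log2(RPKM + 0.1), and that of the members from 0.31 to 0.39.

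With the replicate block, 23 genes were called over both genotypes, where 62.1% of all genes were. The replicate block by genotype and number gave 25, where 63.3% of all genes were called. In controls the replicate block gave 22, where 43.8% of all genes were called, and in knockouts 16, where 50.6% were. For genotype it gave 0. Beyond Slc2a1, Esam, Ogn and Tek, the blocks changed no call of the 31. All-gene calls over both tissues rose from 10 to 22 with the block, to 37 with DESeq2, and fell to 4 with limma on means of both tissues. In cortex they were 3, or 11 with DESeq2, and in hippocampus 4, or 18 with DESeq2 and 2 with limma at a pseudocount of 1, the RPKM filter, only the libraries compared, or most libraries left out. In controls 5464 tissue calls became 3231 without cortex control replicate 1, and in knockouts 6442 became 4156 without cortex knockout replicate 1. The cause was not tested. Depth limits Slc6a13 and Lum most, with as few as 8 and 17 counts in a library.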

Other observations

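Of the 12 endothelial genes, 6 were higher in replicate 2 than in replicate 1 of all 4 groups on scaled counts, a pattern noticed in the data, and 0 were lower in all 4. The same held for 16.0% of all genes tested, and 17.0% were lower in all 4. Kdr was higher in 3 groups, Tek, Tie1, Slco1c1 and Abcb1a in 2 and Pecam1 in 1. On scaled counts the ratio of replicate 2 to replicate 1 for Sox17 was 1.28 in cortex control, 1.56 in cortex knockout, 1.32 in hippocampus control and 1.69 in hippocampus knockout. For Slc2a1 it was 1.03, 1.48, 1.06 and 1.67, and for Flt1 1.03, 1.33, 1.08 and 1.75. Esam, Cldn5 and Mfsd2a also lay above 1 in all 4 groups (Mfsd2a at 1.00 in hippocampus knockout after rounding). Vegfa, the ligand of Flt1 and Kdr, gave 1.17, 1.88, 1.34 and 1.47, and Apln, a peptide of growing vessels, gave 1.15, 1.43, 1.28 and 1.58. These 2 were picked from the 24 vessel signalling genes. Of the same list, Notch1, Wnt7a, Itgav and Itgb8 were lower in replicate 2 of every group, and the whole list was not counted. Rgs5 and Vtn were lower in replicate 2 of every group. Replicate 1 of every group pools runs 1 and 2, and Y-linked RNA differed between the replicates of each group. The part of either was not tested. These are values without a test, and the replicates of a group have no order beyond their labels.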
